A study of Mus musculus with 12 samples.

Results

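The genes described here encode the nuclear pore complex and the receptors that carry cargo through it. They were all rows of the mouse heart count table whose symbol begins with Nup or Ipo and a digit, with Kpna or Kpnb, or with Xpo followed by a digit or t. This rule took 41 genes of 25171 loci, of which 21 encode pore components, 14 importins and 6 exportins. The rule reads symbols alone, but it was chosen with earlier results of these data known. The RNA came from 12 mouse hearts in 4 groups of 3. EIIa-tg mice carried NOTCH2NLC with 98 GGC repeats behind a loxP-flanked stop at Rosa26 together with EIIa-Cre, which acts in all tissues, and their hearts were taken at postnatal day 30. EIIa-ctl mice were littermates of the same age with the conditional transgene but without this Cre. Myh6-tg mice carried the conditional transgene and creERT2 driven by the Myh6 promoter, a promoter of cardiomyocytes. They received 3 injections of tamoxifen at 75 mg per kg from day 60, and hearts were taken at day 90. Myh6-ctl mice are labelled with the same genotype and received corn oil alone. The polyglycine protein made from the repeats forms inclusions in nuclei, which is the reason for looking at the genes of nuclear transport.

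The nuclear pore is the channel through which proteins and RNA pass between the nucleus and the cytoplasm. Its scaffold is built of an outer ring and an inner ring, it is anchored in the nuclear envelope by membrane proteins, and its central channel is filled by proteins rich in phenylalanine and glycine repeats that let only small molecules and bound transport receptors through. Filaments reach into the cytoplasm and a basket reaches into the nucleus. Importin alpha proteins read the nuclear localization signal of a cargo and join importin beta, whereas other members of the importin beta family bind cargo by themselves. Exportins take cargo out together with the small GTPase Ran.

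Between 38343106 and 50969834 reads per heart were counted, and 3 counts, the smallest number taken as detected, corresponded to 0.0568 to 0.0815 CPM (counts scaled to a common library total with TMM factors, which correct for composition), which covers counting error only. Genes of the mitochondrial genome took 34.2% to 36.7% of the counts in EIIa-ctl and 28.5% to 32.3% in EIIa-tg hearts, and 31.8% to 38.3% in Myh6-ctl and 15.5% to 18.6% in Myh6-tg hearts. This share moved with the groups in the same direction in both models, and its part in the results below was not tested beyond leaving these genes out. The members together took 0.117% to 0.236% of the counts of a heart. Markers of cardiomyocytes summed to between 8580 and 45595 CPM per heart, and the neuron markers Snap25, Rbfox3 and Syt1 did not pass 0.285 CPM in any heart, although the extraction notes name brain. The fourth neuron marker listed, Tubb3, ranged from 0.788 to 17.9 CPM. Esr1, whose ligand-binding part is used in creERT2, had 1031 to 2331 CPM in Myh6-ctl and 1.00 to 2.52 CPM in Myh6-tg hearts, although both groups are labelled with the same creERT2 line. Whether the genotypes of the Myh6 groups are as labelled could not be settled. Every Myh6 comparison rests on these libraries and cannot be given without them. In EIIa-tg replicates 2 and 3 the genotype label carries another line name than in replicate 1, and their titles place them in this group. The hearts are labelled as biological replicates, and sex followed the replicate number. The summed level of 4 Y-linked genes was 104 to 156 CPM in the 4 hearts numbered 1 and at most 0.0518 CPM in the 8 hearts numbered 2 and 3.

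Compared per length, as FPKM (fragments scaled to transcript length and library total), importins had the highest levels of the family. Ipo5, an importin that carries ribosomal proteins and histones among other cargo, had a mean of 43.0 FPKM over the 12 hearts and ranged from 30.3 to 69.1 FPKM. The importin alpha genes Kpna1 and Kpna4 followed with means of 26.4 and 25.2 FPKM, and their ranges of 18.9 to 48.5 and 10.1 to 47.2 FPKM lay largely over each other. Kpnb1, which encodes importin beta 1, the partner of the importin alpha proteins, had a mean of 19.5 FPKM. Kpna7 had 0 counts in every heart, which allows a level of up to 0.0815 CPM in the heart where 3 counts are worth most, so that 40 of the 41 genes could be tested.

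Among pore components the highest mean levels were those of Nup88, a component of the cytoplasmic filaments, with 18.8 FPKM, Nup62 of the central channel with 11.3 FPKM, and Nup85 of the outer ring with 7.59 FPKM. The lowest were those of the membrane protein gene Nup210, with 0.352 FPKM, and of Nup210l, its relative, with 0.0395 FPKM. The exportins spanned a narrow range, from 1.93 FPKM for Xpo4 to 8.21 FPKM for Xpo1, the exportin of proteins with a leucine-rich nuclear export signal. Xpot, the exportin of transfer RNA, and Xpo6, the exportin of actin, had means of 7.37 and 5.63 FPKM.

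**Figure D1:**
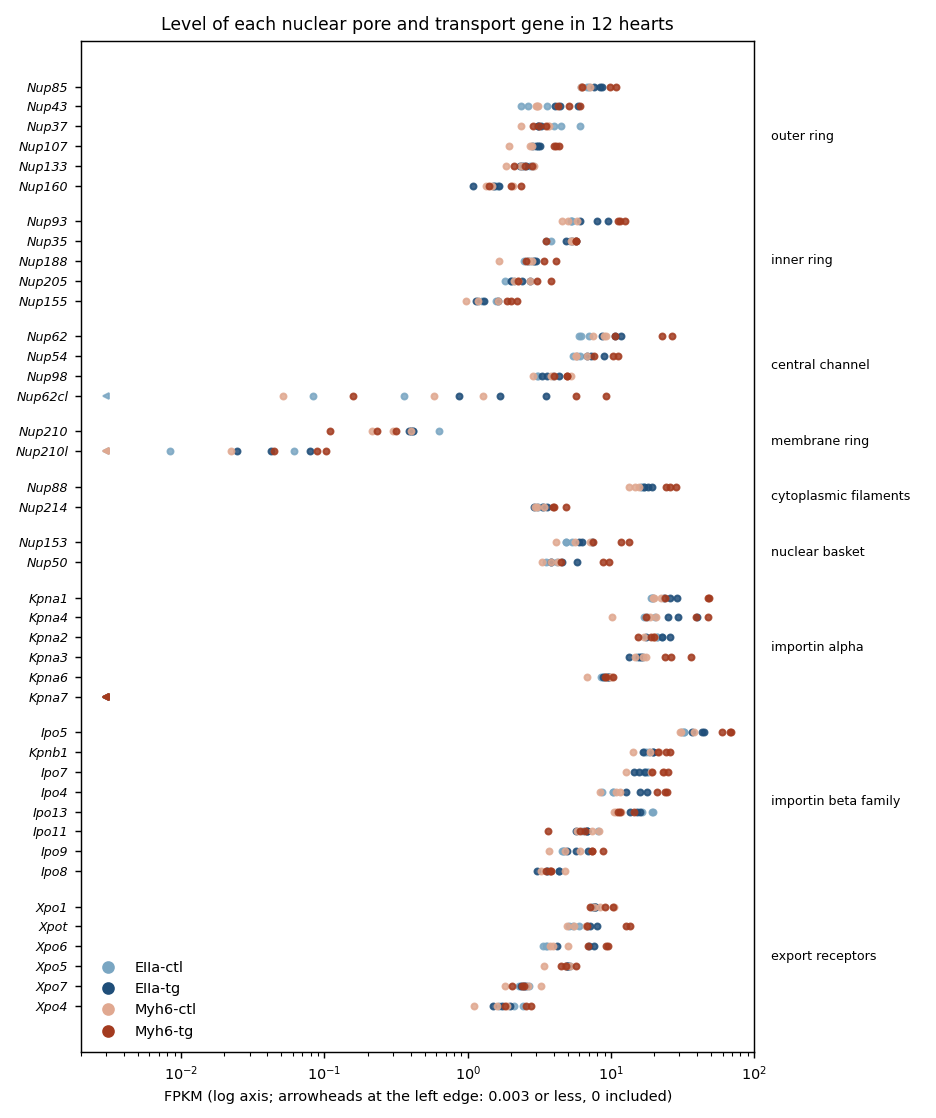
Level in FPKM on a log axis of each of the 41 genes in the 12 hearts, 1 point per heart, coloured by group and grouped by role. Ipo5 has the highest mean, 43.0 FPKM, and Kpna7 is at 0 in all hearts.

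Promoter sequence was read for the 3 genes on which the comparisons turn most, Ipo4, which was called in both models, Nup93, which had the lowest p in Myh6-tg hearts, and Nup62, which had the lowest p in EIIa-tg hearts. The 250 bases before a RefSeq start of each gene are given 5′ to 3′ on the strand of the gene, on GRCm38.p6. For Ipo4 this window is chr14:55635685-55635934 on the minus strand, for Nup93 chr8:94214314-94214563 on the plus strand, and for Nup62 chr7:44815838-44816087 on the plus strand. Capitals mark matches, on either strand, to the CCAAT box (CCAAT), the GC box (GGGCGG), the E-box (CACGTG), the ETS motif (CCGGAAG), the NRF1 motif (GCGCA followed directly by its reverse complement) and the CRE (TGACGTCA).
Ipo4: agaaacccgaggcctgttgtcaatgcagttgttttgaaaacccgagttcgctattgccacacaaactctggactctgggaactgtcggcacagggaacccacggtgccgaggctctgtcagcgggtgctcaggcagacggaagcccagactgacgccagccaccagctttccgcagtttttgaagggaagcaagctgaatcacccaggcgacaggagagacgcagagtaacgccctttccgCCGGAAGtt
Nup93: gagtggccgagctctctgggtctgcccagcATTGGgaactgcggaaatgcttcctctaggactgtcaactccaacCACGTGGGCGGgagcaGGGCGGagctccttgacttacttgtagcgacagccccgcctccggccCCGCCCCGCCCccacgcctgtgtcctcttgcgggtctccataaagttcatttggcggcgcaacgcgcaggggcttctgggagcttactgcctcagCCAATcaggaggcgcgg
Nup62: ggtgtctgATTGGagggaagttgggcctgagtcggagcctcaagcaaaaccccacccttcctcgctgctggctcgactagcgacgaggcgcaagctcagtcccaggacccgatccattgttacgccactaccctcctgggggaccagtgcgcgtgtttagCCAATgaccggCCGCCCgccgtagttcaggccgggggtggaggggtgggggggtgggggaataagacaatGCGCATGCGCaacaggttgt

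Ipo4 had 1 match, an ETS motif that begins 9 bases before the RefSeq start. In the GENCODE M21 annotation Ipo4 starts further out, at 55635957, so that its window lies inside the gene as placed there. Nup93 had 2 CCAAT boxes, 4 GC boxes and 1 E-box, where the E-box shares its last base with a GC box and a pair of GC boxes share 1 base. Nup62 had 2 CCAAT boxes, 1 GC box and the NRF1 motif, which begins 20 bases before the start. RefSeq promoters were matched for 32 of the 41 members, with 37 promoters among them. The GC box was present in 64.9% of these 37 and in 32.7% of 32851 mouse promoters of the same length, the CCAAT box in 54.1% and 33.8%, the ETS motif in 16.2% and 6.91%, the E-box in 13.5% and 6.02%, the NRF1 motif in 10.8% and 0.782%, and the CRE in 5.41% and 1.55%. The median GC content was 64.4% in the promoters of members and 52.4% in all promoters, so the shares of GC-rich motifs were not compared at equal base composition. No motif was tested against expression.

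In EIIa-tg hearts 7 of the 40 tested members changed, 4 of them upwards (8.65% of all genes tested) and 3 downwards (8.30%). The genes that rose were Nup62 and its X-linked relative Nup62cl, the importin alpha gene Kpna4, and Ipo4, an importin that carries histones. The genes that fell were Nup37 of the outer ring and the importins Ipo11 and Ipo13, which carry ubiquitin-conjugating enzymes among other cargo. Apart from Nup62cl the changes lay between -0.81 and 0.51 on the log2 scale. A gene was called at a Benjamini-Hochberg adjusted p under 0.05 in edgeR's quasi-likelihood test over all 14908 genes tested, of which 17.0% were called, so that the share of members called, 17.5%, was close to that of all genes. At the thresholds of the study, an adjusted p below 0.01 and an absolute log2 change of 1 or more, 0 members and 0 genes in all were called by edgeR. The study applied these thresholds with another test, DESeq2, and reported genes that passed them in both models. An unadjusted p under 0.05 in edgeR was found for 17 members, where 34.9% of all genes had one. The median log2 fold change was -0.09 over the members and 0.02 over all genes.

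Nup62 encodes the main protein of the central channel. It measured 19.1, 20.7 and 19.1 CPM in EIIa-ctl replicates 1, 2 and 3 and 29.2, 24.1 and 29.6 CPM in EIIa-tg replicates 1, 2 and 3. All transgenic hearts lay above all controls, and the log2 fold change was 0.49 (SE 0.11, adjusted p = 0.0291 by edgeR). Nup62 shares 82 exon bases with Atf5 on the other strand and 97 with Il4i1 on the same strand, and the counting is not stated to use strand. For Atf5 the log2 fold change in the same hearts was 0.13 (adjusted p = 0.469, edgeR) and Il4i1 reached at most 0.148 CPM in any heart.

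Nup62cl, which encodes a protein like the carboxy-terminal part of Nup62, had 0, 30 and 7 counts in the EIIa-ctl hearts and 139, 86 and 271 counts in the EIIa-tg hearts. These correspond to 0, 0.782 and 0.190 CPM and to 3.43, 1.71 and 6.04 CPM. The groups did not overlap, and the log2 fold change was 3.53 (SE 0.94, adjusted p = 0.0399 by edgeR). DESeq2 gave an adjusted p of 0.0747 for this gene. No other member tested had a difference of 1 or more on the log2 scale, which 11.2% of all genes had.

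Nup37, a small subunit of the Y-shaped complex of the outer ring, measured 5.99, 6.12 and 8.78 CPM in EIIa-ctl and 4.19, 4.05 and 3.68 CPM in EIIa-tg hearts. All 3 transgenic hearts lay below the controls, and the log2 fold change was -0.81 (SE 0.20, adjusted p = 0.0331 by edgeR). The other 5 members of the outer ring had log2 fold changes between -0.35 and 0.54 and were not called.

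Among the importin alpha genes Kpna4 measured 94.8, 93.3 and 80.6 CPM in EIIa-ctl and 127, 108 and 149 CPM in EIIa-tg hearts. The groups did not overlap (log2 fold change 0.51, SE 0.13, adjusted p = 0.0349 by edgeR). Kpna3, the importin alpha gene closest to Kpna4, measured 78.9, 66.5 and 77.6 CPM against 55.0, 65.1 and 61.6 CPM. Its groups did not overlap either, with the transgenic hearts below, but it was not called (log2 fold change -0.30, SE 0.11, adjusted p = 0.0876 by edgeR). Kpna2, at 50.7, 50.7 and 49.0 CPM in controls, was spread over 36.8, 54.7 and 42.9 CPM in EIIa-tg hearts, on both sides of the controls.

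In the importin beta family Ipo4 measured 38.6, 42.2 and 44.7 CPM in EIIa-ctl and 61.1, 49.5 and 62.5 CPM in EIIa-tg hearts (log2 fold change 0.46, SE 0.11, adjusted p = 0.0332 by edgeR). Ipo13 went from 83.1, 64.1 and 79.6 CPM to 49.9, 59.2 and 50.8 CPM (log2 fold change -0.51, SE 0.13, adjusted p = 0.0329 by edgeR), and Ipo11 from 31.4, 26.4 and 30.2 CPM to 19.9, 23.5 and 20.5 CPM (log2 fold change -0.47, SE 0.12, adjusted p = 0.0359 by edgeR). In these 3 genes the groups did not overlap, and EIIa-tg replicate 2 was the transgenic heart nearest to the controls each time. Ipo4 shares 2583 exon bases, 55.3% of its exons, with the read-through gene Gm49378, which had 215 counts in all hearts together against 29515 for Ipo4. Kpnb1 was not called (log2 fold change -0.12, SE 0.10, adjusted p = 0.417 by edgeR, and 0.07 when scaled to totals alone).

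Of the 6 exportins 0 were called by edgeR, where 17.0% of all genes tested were. An unadjusted p under 0.05 was found for 4 of them, where 34.9% of all genes had one. Xpo6 measured 17.5, 16.9 and 18.4 CPM in EIIa-ctl and 28.4, 18.2 and 28.0 CPM in EIIa-tg hearts, so that replicate 2 stayed within the controls (log2 fold change 0.49, SE 0.17, adjusted p = 0.0758 by edgeR). DESeq2 called Xpo6, with an adjusted p of 0.0492. Xpo1 measured 50.9 to 52.4 CPM in controls and 43.0 to 47.2 CPM in EIIa-tg hearts, without overlap and without a call (log2 fold change -0.17, SE 0.09, adjusted p = 0.211 by edgeR, and 0.03 when scaled to totals alone).

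Over the 40 tested members 22 had groups that did not overlap, 10 with the EIIa-tg hearts above and 12 with them below. Of all genes tested 41.1% had such groups, 20.3% above and 20.8% below. The calls depended on single hearts, as did those of all genes. Without EIIa-ctl replicate 1 or 3, or EIIa-tg replicate 1 or 3, 0 members were called by edgeR, and of all genes 0%, 0.00650%, 0% and 0.877% were. Without EIIa-ctl replicate 2 the number was 6 (11.7% of all genes), and without EIIa-tg replicate 2 it was 12 (26.6%), while the direction of each of the 7 genes was kept each time. With each heart left out the adjusted p (edgeR) ranged from 0.00772 to 0.106 for Nup62, from 0.00636 to 0.121 for Ipo4, from 0.00720 to 0.131 for Kpna4, from 0.0112 to 0.119 for Ipo13, from 0.0130 to 0.125 for Ipo11, from 0.0349 to 0.120 for Nup37 and from 0.0197 to 0.141 for Nup62cl. With a term for the hearts numbered 1, which differ in sex from the others, 2 of the 7 genes, Nup62 and Nup62cl, were called (11.3% of all genes), and the adjusted p (edgeR) of the other 5 lay between 0.0514 and 0.0555. With the hearts numbered 2 and 3 alone 0 members and 0 genes in all were called by edgeR. Scaling to the totals alone moved the median of all genes to 0.21 and gave 9 calls, all of them upwards, in place of 4 upwards and 3 downwards, where 21.3% of all genes were called; the 3 genes that fell kept negative log2 fold changes, of -0.62 for Nup37, -0.31 for Ipo13 and -0.27 for Ipo11.

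**Figure D2:**
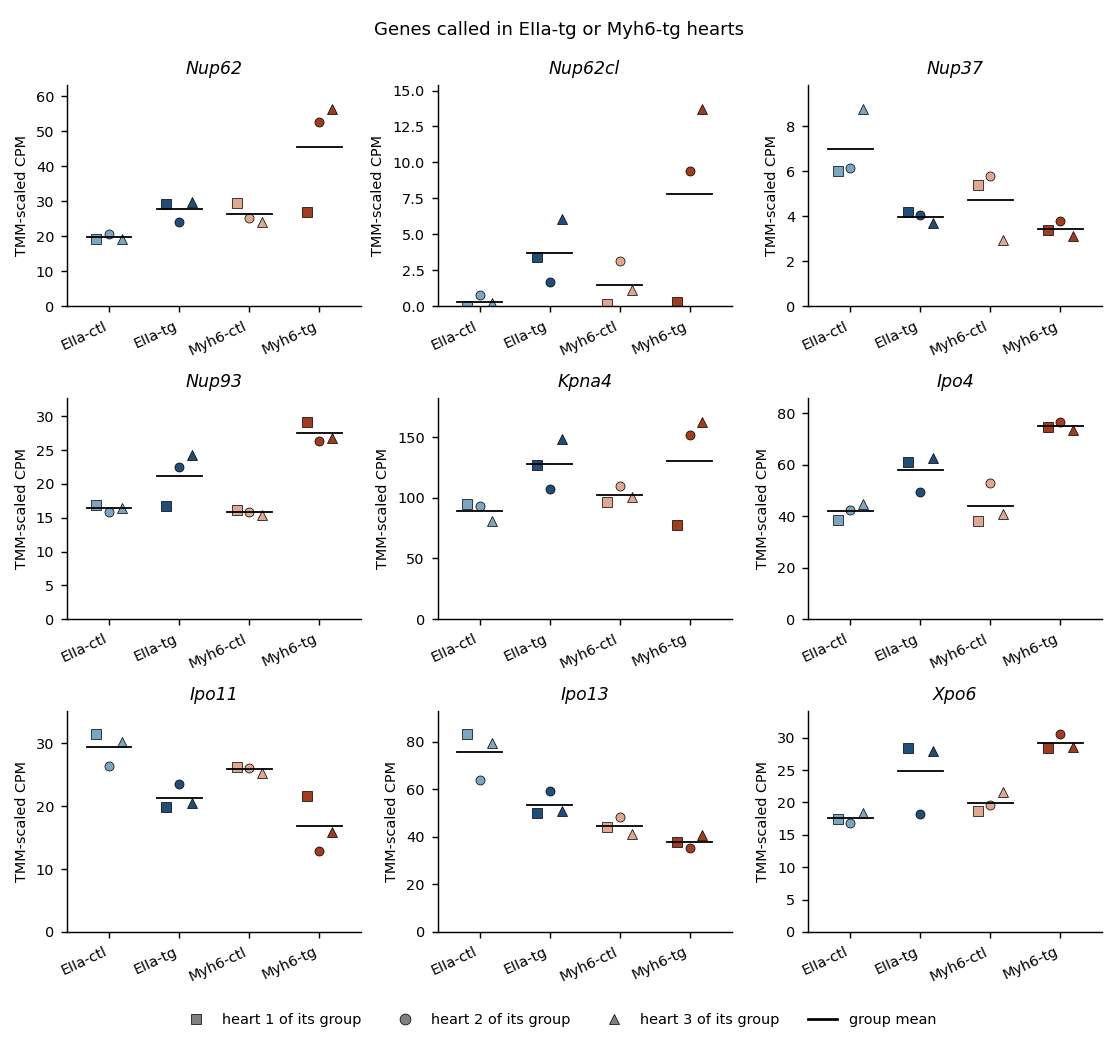
TMM-scaled CPM in each heart of the 9 genes called in EIIa-tg or Myh6-tg hearts, with 1 symbol for each replicate number and a line at the group mean. Ipo4 sits at 73.4 to 76.7 CPM in the Myh6-tg hearts, above all other hearts, and replicate 1 of Myh6-tg lies apart from replicates 2 and 3 for Nup62, Nup62cl and Kpna4.

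In Myh6-tg hearts 3 of the 40 tested members rose (8.96% of all genes tested did) and 0 fell (9.38%), by edgeR. They were Nup93, which encodes a scaffold protein of the inner ring, Ipo4, and Xpo6, one in each class of the family. The 3 changes lay between 0.55 and 0.79 on the log2 scale. Of all 15298 genes tested 18.3% were called by edgeR, and 14 members had an unadjusted p under 0.05, where 34.1% of all genes did. At the thresholds of the study 0 members were called by edgeR, as were 3.97% of all genes. The median log2 fold change was 0.12 over the members and 0.03 over all genes.

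Nup93 measured 16.2, 15.9 and 15.5 CPM in Myh6-ctl and 29.3, 26.3 and 26.9 CPM in Myh6-tg hearts. Both groups were tight and far apart, and the log2 fold change was 0.79 (SE 0.15, adjusted p = 0.0145 by edgeR). The partners of Nup93 in the inner ring did not share this pattern, with log2 fold changes of 0.31 for Nup155, 0.10 for Nup188, -0.05 for Nup205 and -0.53 for Nup35, none of them called. Nup93 in EIIa-tg hearts measured 16.8, 22.5 and 24.3 CPM, where replicate 1 lay within the control range of 15.9 to 16.9 CPM (log2 fold change 0.36, SE 0.15, adjusted p = 0.118 by edgeR).

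Nup62 measured 29.5, 25.2 and 24.0 CPM in Myh6-ctl and 26.9, 52.7 and 56.4 CPM in Myh6-tg hearts. Replicate 1, which differs in sex from replicates 2 and 3, lay within the controls. Replicates 2 and 3 lay far above them, and Nup62 was not called (log2 fold change 0.79, SE 0.28, adjusted p = 0.0911 by edgeR). Nup62cl had 6, 122 and 58 counts in controls and 14, 435 and 726 counts in Myh6-tg hearts, with replicate 1 again low (log2 fold change 2.43, SE 1.28, adjusted p = 0.224 by edgeR). In the fit with the replicate number as a block, Nup62cl was called (adjusted p = 0.0317, edgeR). Nup210l had a log2 fold change of 2.85 (SE 1.30, adjusted p = 0.165 by edgeR), which rests on 7, 0 and 0 counts in controls and 23, 10 and 25 counts in Myh6-tg hearts. These were the 2 members with a difference of 1 or more on the log2 scale, which 24.5% of all genes tested had.

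Both nuclear basket members were highest in Myh6-tg replicates 2 and 3. Nup50 had 18.4, 22.5 and 19.9 CPM in controls and 20.0, 35.4 and 35.9 CPM in Myh6-tg hearts (log2 fold change 0.59, SE 0.25, adjusted p = 0.144 by edgeR). Nup153, which anchors the basket to the pore, had 39.9, 31.1 and 42.9 CPM in controls. In Myh6-tg hearts it had 43.0, 60.7 and 64.1 CPM, with replicate 1 just above the highest control (log2 fold change 0.56, SE 0.22, adjusted p = 0.112 by edgeR). Nup88 of the cytoplasmic filaments had 41.4, 39.8 and 36.9 CPM in controls and 54.3, 52.4 and 53.4 CPM in Myh6-tg hearts, which did not overlap (log2 fold change 0.44, SE 0.15, adjusted p = 0.0754 by edgeR). Nup98, which encodes a mobile protein of the channel together with a subunit of the outer ring, was not called (log2 fold change -0.12, SE 0.20, adjusted p = 0.730 by edgeR, and 0.25 when scaled to totals alone). Nup210 was lower in all 3 Myh6-tg hearts, at 1.54, 0.65 and 1.76 CPM against 1.79, 2.64 and 2.79 CPM, and was not called (log2 fold change -0.87, SE 0.48, adjusted p = 0.241 by edgeR).

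Among the importins Ipo4 measured 37.98, 52.9 and 40.7 CPM in Myh6-ctl and 74.7, 76.7 and 73.4 CPM in Myh6-tg hearts. The groups lay far apart and the transgenic hearts close together, and the log2 fold change was 0.77 (SE 0.18, adjusted p = 0.0242 by edgeR). Ipo5, at 164, 169 and 169 CPM in controls and 287, 228 and 244 CPM in Myh6-tg hearts, was also separated but was not called by edgeR (log2 fold change 0.59, SE 0.18, adjusted p = 0.0534), and DESeq2 called it with an adjusted p of 0.0217. Ipo11, which fell in EIIa-tg hearts, measured 26.3, 26.0 and 25.3 CPM in controls and 21.6, 12.8 and 15.9 CPM in Myh6-tg hearts without overlap (log2 fold change -0.62, SE 0.22, adjusted p = 0.0839 by edgeR). Kpna1 and Kpna4 were high in replicates 2 and 3, at 207 and 186 CPM for Kpna1 and 152 and 163 CPM for Kpna4, whereas replicate 1 had 111 CPM and 77.4 CPM, beside controls of 109 to 124 CPM and 96.2 to 110.0 CPM. Kpna2 had a mean of 43.9 CPM in controls, where every heart lay above the 29.9 to 34.6 CPM of the Myh6-tg hearts (log2 fold change -0.47, SE 0.17, adjusted p = 0.0955 by edgeR).

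Among the exportins Xpo6 measured 18.7, 19.6 and 21.6 CPM in Myh6-ctl and 28.4, 30.5 and 28.5 CPM in Myh6-tg hearts. The groups did not overlap (log2 fold change 0.55, SE 0.16, adjusted p = 0.0470 by edgeR). With the replicate number as a block its adjusted p was 0.0664 (edgeR). Xpo1 had 58.7, 56.7 and 61.4 CPM in controls and 39.8, 45.9 and 48.3 CPM in Myh6-tg hearts, with all transgenic hearts below the controls (log2 fold change -0.40, SE 0.16, adjusted p = 0.116 by edgeR, and 0.0012 when scaled to totals alone). Xpot measured 38.3 CPM in Myh6-tg replicate 1, within the controls, and 64.6 and 63.2 CPM in replicates 2 and 3 (log2 fold change 0.54, SE 0.23, adjusted p = 0.138 by edgeR).

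**Figure D3:**
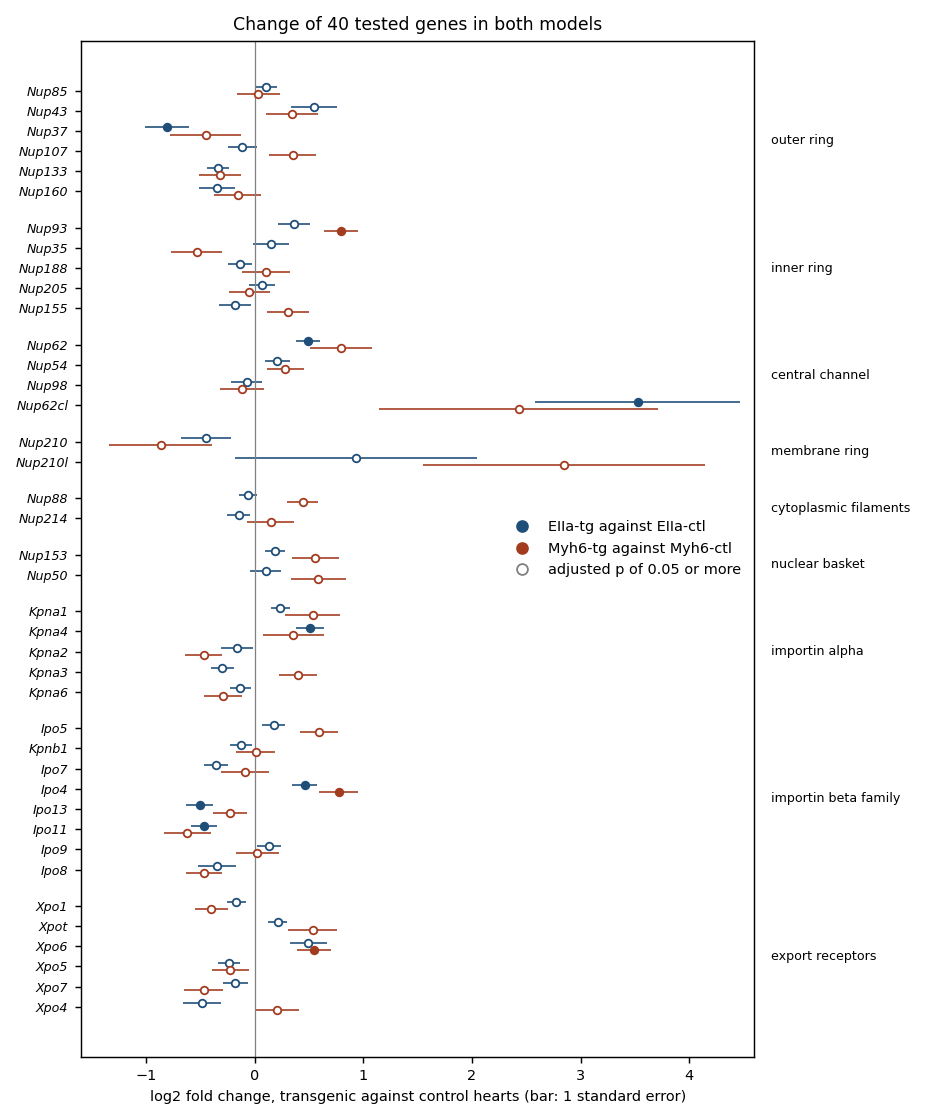
Log2 fold change with 1 standard error of the 40 tested genes in EIIa-tg (blue) and Myh6-tg (red) hearts, grouped by role. Filled points had an adjusted p under 0.05, 7 in EIIa-tg and 3 in Myh6-tg hearts, and Ipo4 is filled in both.

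For 9 members the Myh6-tg replicates 2 and 3 both lay above all controls and replicate 1 did not, namely Kpna1, Kpna4, Nup50, Nup54, Nup62, Nup62cl, Nup85, Xpo4 and Xpot, and for 2 members, Kpna6 and Nup133, they lay below and replicate 1 did not. Together these were 27.5% of the members tested, where 18.0% of all genes tested had this pattern, which was looked for after the values had been seen. Replicate 1 was also the only Myh6-tg heart with Y-linked expression, so sex and other differences of this heart cannot be told apart. For Myh6-tg replicate 2 as the heart apart it was 0 members (4.56% of all genes) and for replicate 3 it was 2 above and 2 below (4.29% of all genes). Without Myh6-tg replicate 1, 13 members were called by edgeR, 11 upwards and 2 downwards, while 26.7% of all genes were called. Without Myh6-ctl replicate 1, Myh6-tg replicate 2 or Myh6-tg replicate 3 the number was 0 by edgeR (5.01%, 6.23% and 6.17% of all genes), without Myh6-ctl replicate 3 it was 1 (10.3%), and without Myh6-ctl replicate 2 it was 2 (11.0%). With each heart left out the adjusted p (edgeR) ranged from 0.0140 to 0.0654 for Nup93, from 0.0223 to 0.101 for Ipo4 and from 0.0435 to 0.183 for Xpo6, and the log2 fold changes stayed above 0.50. Over the 40 members 17 had groups that did not overlap, 9 with the Myh6-tg hearts above and 8 with them below. Of all genes 40.2% had such groups, 20.6% above and 19.6% below.

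**Figure D4:**
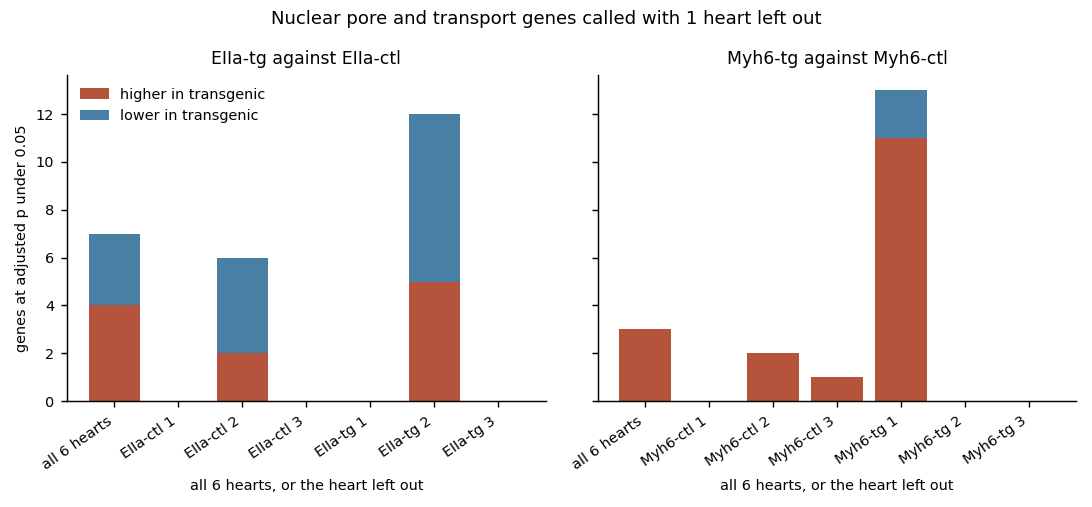
Number of members with an adjusted p under 0.05 (edgeR) with all 6 hearts of a comparison and with each heart left out, stacked by direction. The bars reach 12 without EIIa-tg replicate 2 and 13 without Myh6-tg replicate 1, and 4 of the left-out hearts in the EIIa model and 3 in the Myh6 model leave 0 calls.

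Scaling mattered most for Myh6-tg hearts. With the totals alone the median of all genes was 0.42 and 11 members were called, all upwards, where 26.2% of all genes were called. The median of the members was 0.51 on that scale. Nup93, Ipo4 and Xpo6 had log2 fold changes of 1.19, 1.18 and 0.93 there.

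Levels were summed over the members of each role, so pore genes outside the symbol rule are left out. The central channel had 68.0 to 73.4 CPM in Myh6-ctl and 74.2, 105 and 115 CPM in Myh6-tg hearts. The nuclear basket had 53.6 to 62.9 CPM against 62.9, 96.0 and 99.98 CPM. In both sums replicate 1 of Myh6-tg was close to the controls. The basket sum leaves out the basket gene Tpr, which did not have this pattern. Tpr measured 73.9, 53.0 and 83.0 CPM in Myh6-ctl and 93.8, 64.3 and 76.3 CPM in Myh6-tg hearts. The inner ring went from 64.5 to 71.3 CPM in controls to 75.2 to 83.1 CPM, and the cytoplasmic filaments from 56.1 to 62.6 CPM to 70.9 to 81.5 CPM. The importin beta family went from 526 to 574 CPM to 591 to 711 CPM. In each of these roles the sums of the Myh6 groups did not overlap. For the nuclear basket the gap was small, with 62.87 CPM in Myh6-ctl replicate 3 and 62.94 CPM in Myh6-tg replicate 1. The 6 members of the outer ring did not separate, with 58.1 to 62.3 CPM against 55.2 to 61.1 CPM. Their sum leaves out the outer ring genes Seh1l and Sec13. Seh1l measured 38.4, 38.3 and 34.5 CPM in Myh6-ctl and 45.7, 46.0 and 45.9 CPM in Myh6-tg hearts. Sec13 measured 50.2, 65.3 and 45.7 CPM in Myh6-ctl and 64.7, 73.6 and 71.0 CPM in Myh6-tg hearts. The sum therefore does not describe the whole ring. Exportins were at 179 to 207 CPM in Myh6-ctl and 175 to 209 CPM in Myh6-tg hearts, and at 186 to 206 CPM and 186 to 196 CPM in the EIIa groups. The cytoplasmic filaments lay lower without overlap in EIIa-tg hearts, with 63.2 to 65.7 CPM in EIIa-ctl against 60.9 to 61.3 CPM. So did the 6 members of the outer ring, with 63.6 to 70.2 CPM against 57.9 to 61.4 CPM. The membrane ring members did so too, with 3.46 to 4.87 CPM against 2.96 to 3.25 CPM. Of the genes left out of the outer ring sum, Seh1l lay higher, at 34.5 to 36.6 CPM in EIIa-ctl against 38.8 to 43.1 CPM in EIIa-tg hearts. Sec13 overlapped, at 49.5 to 61.3 CPM against 54.7 to 59.9 CPM, so a fall of the whole ring was not shown. The other roles overlapped between the EIIa groups. Of all genes tested singly, 41.1% in the EIIa and 40.2% in the Myh6 comparison had groups that did not overlap. These sums are descriptions that give abundant genes more weight, and a single gene can carry the change of a sum. In the inner ring Nup93 went from a mean of 15.9 CPM in Myh6-ctl to 27.5 CPM in Myh6-tg hearts. Nup155 went from 10.9 to 13.5 CPM and Nup188 from 15.0 to 16.1 CPM. Nup205 went from 16.9 to 16.3 CPM and Nup35 from 9.50 to 6.56 CPM.

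**Figure D5:**
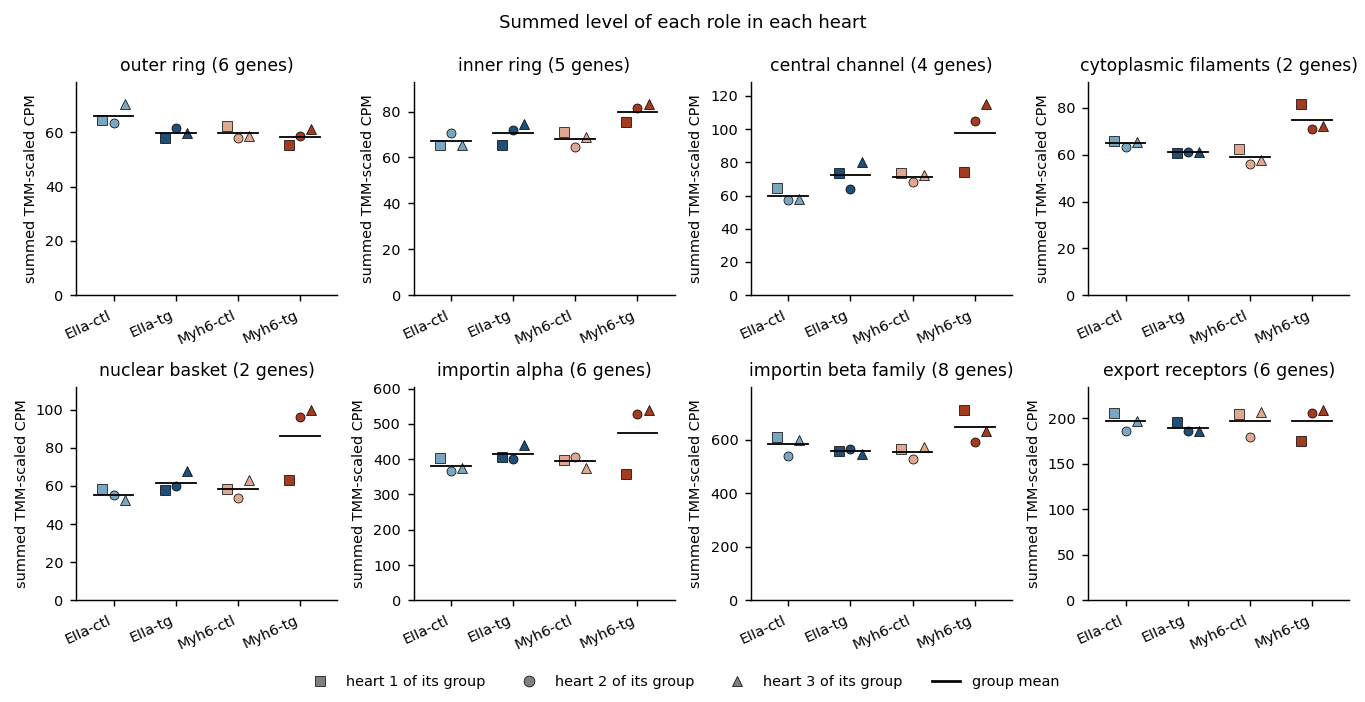
Summed TMM-scaled CPM of the members of 8 roles in each heart, with 1 symbol for each replicate number and a line at the group mean. Pore genes outside the symbol rule are not in the sums. The central channel and nuclear basket sums of Myh6-tg replicates 2 and 3 lie above all other hearts, and the sums of the export receptors overlap between all groups.

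Across both models 16 members had positive and 14 negative log2 fold changes in each, which is 75% of 40 with the same sign, where 70.9% of 14649 genes tested in both had the same sign. Ipo4 was the only member called in both, as were 933 of the 14649 genes. When the change in Myh6-tg hearts was tested against the change in EIIa-tg hearts in all 12 hearts, 0 of 40 members were called by edgeR, where 3.92% of 15929 genes were. DESeq2 called 2, Kpna3 and Nup88 (8.56% of all genes by DESeq2), and 5 members had an unadjusted p under 0.05 in edgeR, where 19.4% of all genes did. Kpna3 was lower in EIIa-tg hearts and measured 89.9, 90.8 and 114 CPM in Myh6-tg hearts, above the 69.9 to 80.2 CPM of Myh6-ctl. The difference between its log2 fold changes was 0.69 (SE 0.19, adjusted p = 0.0668 by edgeR). For Nup88 it was 0.50 (SE 0.14, adjusted p = 0.0767 by edgeR). For Ipo4 the difference was 0.31 (SE 0.21, adjusted p = 0.447 by edgeR). Without Myh6-tg replicate 1, 2 members, Kpna3 and Xpot, were called in this test, where 10.6% of all genes were.

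Between the control groups 0 of 39 members were called by edgeR, where 0.0334% of 14990 genes were. DESeq2 called 1 member, Ipo13 (2.64% of all genes by DESeq2), and 3 members had an unadjusted p under 0.05 in edgeR, where 11.3% of all genes did. Ipo13 measured 83.1, 64.1 and 79.6 CPM in EIIa-ctl and 44.1, 48.4 and 41.3 CPM in Myh6-ctl hearts, without overlap (log2 fold change -0.76, SE 0.14, adjusted p = 0.104 by edgeR). This difference between controls was larger in size than the fall of Ipo13 in EIIa-tg hearts (log2 fold change -0.51, SE 0.13). Both rest on the same EIIa-ctl hearts, and they were not tested against each other. For Nup62cl the log2 fold change was 2.17 (SE 1.28, adjusted p = 0.573 by edgeR), from 0 to 0.782 CPM in EIIa-ctl and from 0.136 to 3.16 CPM in Myh6-ctl hearts. Age, line, creERT2 and oil injection cannot be told apart in this comparison.

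Other genes of the pathway were listed by role, 37 in all, and all were tested. In EIIa-tg hearts 4 of them rose and 3 fell, close to the 8.65% and 8.30% of all genes. Those that rose were Rangap1 and Rcc1, which switch Ran off in the cytoplasm and on at chromatin (log2 fold changes of 0.45 and 0.57, adjusted p of 0.0323 and 0.0393 by edgeR), the pore gene Aaas (0.73, adjusted p = 0.0178 by edgeR) and the messenger RNA export factor Thoc6 (0.77, adjusted p = 0.0390 by edgeR). Those that fell were Ndc1, a membrane anchor of the pore (-0.61, adjusted p = 0.0194 by edgeR), Ddx19b, a helicase of messenger RNA export (-0.51, adjusted p = 0.0370 by edgeR), and Tnpo3, an importin of splicing factors (-0.38, adjusted p = 0.0420 by edgeR). Ran itself had log2 fold changes of 0.19 in EIIa-tg and 0.17 in Myh6-tg hearts and was not called. In Myh6-tg hearts 0 of the 37 were called by edgeR, where 18.3% of all genes were. The difference between models was called for Ddx19b alone, at 1.10 (adjusted p = 0.0216 by edgeR).

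Markers of other cells moved in the same hearts. The summed level of 7 cardiomyocyte markers was 37594 to 45595 CPM in EIIa-ctl and 18588 to 33056 CPM in EIIa-tg hearts, with 1 of the 7 called lower, and 29291 to 38828 CPM in Myh6-ctl and 8580 to 28748 CPM in Myh6-tg hearts, with 4 of 7 called lower. The 6 fibroblast markers summed to 1176 to 1560 CPM against 2032 to 2955 CPM in the EIIa groups, with 2 called higher, and to 1562 to 2003 CPM against 2844 to 6576 CPM in the Myh6 groups, with 4 called higher. All 5 macrophage markers were called higher in EIIa-tg hearts, at 123.1 to 174 CPM in controls against 234 to 308 CPM, and 0 of 5 by edgeR in Myh6-tg hearts, at 206 to 334 CPM against 310.0 to 657 CPM. Of the 5 endothelial markers 3 were called lower in EIIa-tg hearts, and the sum of all 5 was 854 to 986 CPM in EIIa-ctl and 645 to 735 CPM in EIIa-tg hearts. In Myh6-tg replicate 1 the cardiomyocyte sum was 28748 CPM and the fibroblast sum 2844 CPM, whereas in replicates 2 and 3 they were 11343 and 8580 CPM and 6144 and 6576 CPM. The part of these shifts in the values of the transport genes was not tested, and in whole hearts fewer cells of a type and less RNA per cell cannot be told apart.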

How the data were processed

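Whole-heart RNA was sequenced from 12 mice in 4 groups of 3, grouped by the titles of the samples. The authors mapped reads with HISAT2 2.0.4, and the submitters' processing notes also name StringTie 2.2.1 and DESeq2; the authors deposited raw counts per gene and FPKM values, which the authors scaled to transcript length and to the fragments of each heart. The library kit is not stated to keep strand, and 13 of the 41 members share exon bases with another gene in GENCODE M21 on GRCm38. Reads of such pairs cannot be told apart.

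The quasi-likelihood test of edgeR 4.0.16 (R 4.3.3; filterByExpr, TMM factors, glmQLFit, glmQLFTest) was run on the counts of the 6 hearts of each comparison or in all 12 for the difference between models, with p-values adjusted by Benjamini-Hochberg over all genes tested. SE is the log2 fold change divided by the square root of F. Values by heart are CPM with TMM factors over the 12 hearts. Genes were called at an adjusted p below 0.05, and were also counted at the thresholds in the study's methods (0.01, and an absolute log2 change of 1). Depth was 38343106 to 50969834 counts per heart. The p-values measure the spread between 3 hearts per group. The tests were tested on simulated data. Plots used Python 3.11.15 and its library matplotlib 3.10.9.

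The members and the lists of other pathway genes and markers were chosen with earlier results of these data known. Members were named if called, if their absolute log2 change reached 1, if among the 3 highest mean FPKM values of their class, if left out by the filter in all comparisons, or for their role (Xpo1, Kpnb1, Kpna2, Kpna3, Nup62, Nup98, Nup153, Nup210); other members were named after their values were seen. Alternatives were DESeq2 1.42.0, RLE factors, no filter, a minimum of 1 CPM in 3 hearts, the replicate number as a block, a term for number 1, the hearts numbered 2 and 3 alone, removal of mt- genes, limma 3.58.1 on log2(FPKM + 1) and log2(FPKM + 0.1) with a minimum of 0.5 FPKM in 3 hearts or, at a pseudocount of 1, no filter, all 12 hearts in 1 fit, each heart left out and, chosen after seeing the data, scaling to totals alone. Deviations from the group means were correlated between same-numbered Myh6 hearts at 0.285, 0.184 and 0.173, which was taken as pairing, and at 0.06, -0.07 and -0.05 in EIIa hearts. Sex followed the replicate number, so for the hearts numbered 1 shared sex and pairing cannot be told apart. The main Myh6 test did not use the pairing. Protein sequences were not used here.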

Additional observations from a re-analysis of the deposited data

How the results depend on the processing

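Counts of called members moved with the setting (7 in EIIa-tg and 3 in Myh6-tg hearts as reported, 0 for the difference between models and 0 between controls). The share of all genes called stands in brackets. In the EIIa comparison the number was 0 with the replicate block (0.00671%), 0 with the hearts numbered 2 and 3 alone (0%), 0 with all 12 hearts in 1 fit (1.43%), 0 with limma on log2(FPKM + 1) without a filter (0%), 0 at the study's thresholds, 2 with a term for number 1 (11.3%), 4 with limma on log2(FPKM + 0.1) (15.4%), and between 0 and 12 with each heart left out. EIIa replicate numbers did not pair the hearts, and 1 of 3 hearts correlated best with its own number. In the Myh6 comparison it was 0 at the study's thresholds, 5 with a term for number 1 (23.4%), 8 with limma on log2(FPKM + 0.1) (28.8%) and 8 on log2(FPKM + 1) without a filter (18.2%), 9 with the hearts numbered 2 and 3 alone (21.1%; 1 of them lower), 11 with totals alone (26.2%), 13 with all 12 hearts (31.7%; 4 of them lower), 14 with limma on log2(FPKM + 1) (32.9%), and between 0 and 13 with each heart left out. With the replicate block, which pairs the Myh6 hearts, it was 3 (20.9%), of which Ipo4 and Nup93 were among the 3 reported. For the difference between models it was 2 with DESeq2 (8.56%), 2 with limma on log2(FPKM + 1) (5.70%), 1 without its filter (3.85%), 1 with totals alone (3.79%) and between 0 and 2 with each heart left out. Between controls it was 1 with DESeq2 (2.64%). Among the members named, the block changed no call in the Myh6 comparison other than those of Nup62cl and Xpo6; it was not run for the other pathway genes and markers. What caused these shifts was not tested.

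Of 871 log2 fold changes of named members under alternatives, 674 kept direction and side of the threshold, 91 lost a call, 62 gained one and 44 changed sign, all 44 from values that were not called. In the EIIa comparison the 3 limma fits on FPKM (pseudocount 1, pseudocount 0.1 and no filter) and the totals alone gave 0.0137, 0.0136, 0.0137 and 0.0285 for Kpna2, 0.12, 0.14, 0.12 and 0.13 for Nup98, 0.0239, 0.0267, 0.0239 and 0.0264 for Xpo1, 0.0680, 0.0713, 0.0680 and 0.0743 for Kpnb1, and 0.12, 0.13, 0.12 and 0.13 for Nup88. Nup98 was also 0.10 with hearts 2 and 3 alone and between -0.15 and 0.0803 with each heart left out. In the Myh6 comparison they gave 0.20, 0.25, 0.20 and 0.25 for Nup98 and 0.16, 0.17, 0.16 and 0.18 for Ipo13. Xpo1 was 0.0012 with totals alone. Kpnb1 was -0.0104 with DESeq2, -0.0107 with RLE factors, -0.0155 with hearts 2 and 3 alone, -0.0230 without mitochondrial genes, and between -0.0819 and 0.0869 with each heart left out. Nup85 was between -0.0618 and 0.18 with each heart left out. For the difference between models Nup62cl was 0.15 with limma on log2(FPKM + 1) and without its filter and between -2.91 and 0.10 with each heart left out, and Nup210l was between -0.55 and 6.22 with each heart left out. Kpna7, at 0 counts, could not be tested, and Nup210l rests on at most 25 counts in a heart.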
